A study of Mus musculus with 16 samples.

Results

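H3K27ac was lower in classical dendritic cells (cDC) and higher in plasmacytoid dendritic cells (pDC) than in common dendritic cell progenitors (CDP) at the regions described here, which are 953 of the 75217 autosomal regions (1.27%) in the authors' list of differences between CDP and cDC. The regions were chosen by these same signals. In the CDP/cDC list the mean CDP signal plus 1 had to be at least 2 times the mean cDC signal plus 1, with both CDP libraries above both cDC libraries. The region of the CDP/pDC list sharing most base pairs with it had to show the mean pDC signal plus 1 at least 2 times that of CDP, with both pDC libraries above both CDP libraries. The shared part had to reach 50% of the shorter of the pair. Each member therefore has an interval in the CDP/cDC list and an interval in the CDP/pDC list, and the bounds of the pair usually differ. The pDC ratio holds for the CDP/pDC interval as a whole. It was not measured separately for the part inside the CDP/cDC interval.

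The study profiled H3K27ac by chromatin immunoprecipitation and sequencing in 4 cell types of C57BL/6 mice, with 2 libraries each of cDC, pDC, CDP and multipotent progenitors (MPP). The cells were sorted, and chromatin of 1000000 cells entered each precipitation. The labels used here give no sex, age, genotype beyond the strain, or treatment, and nothing in them ties a library to an animal or a culture. The p-values therefore measure only the spread between these libraries, which may be technical. Libraries are named by their place in the lists, first-listed or second-listed. The signals are whole numbers on a scale that differs between lists for the same library, so the read depth is unknown and levels are compared only within a list. Coordinates are those of mouse build mm9. An annotation of that build was not used here, so regions are given by position without gene names, and the cell types were not checked against marker genes.

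Acetylation of lysine 27 on histone H3 is placed by the acetyltransferases CBP and p300 and marks active promoters and enhancers, as opposed to enhancers that are only primed. MPP precede CDP, and CDP give rise to both mature types. cDC present antigen to T cells, whereas pDC are specialised in secreting type I interferon after sensing viral nucleic acids. A region acetylated in the common progenitor can thus be kept, strengthened or lost along either branch.

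At the median member, H3K27ac was 2.91-fold lower in cDC over the CDP/cDC interval and 3.32-fold higher in pDC over the CDP/pDC interval, each compared with CDP. The median signal over members was 46 in the first-listed and 87 in the second-listed cDC library, compared with 184 and 223 in the CDP libraries of the same list. It was 1566 and 1995 in the pDC libraries, compared with 418 and 494 in the CDP libraries of that list. The members between the 25th and 75th percentiles had a 2.32- to 3.93-fold lower signal in cDC and a 2.42- to 4.83-fold higher signal in pDC. These values follow from the choice and are given as a description. The loss criteria alone were met by 16605 of 75217 autosomal regions (22.1%), with a median 3.65-fold lower signal in cDC. The gain criteria alone were met by 18002 of 68385 autosomal regions of the CDP/pDC list (26.3%), with a median 5.14-fold higher signal in pDC. The members were 5.74% of the losses, and their pDC intervals were 4.84% of the gains. Of the 16605 losses, 11648 had a region in the CDP/pDC list that met the overlap limit. The others could not be members, which does not show that they lacked a higher signal in pDC.

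Few members had large ratios in both contrasts. Both ratios reached 4-fold in 69 members and 8-fold in 4. Both ratios share the CDP libraries, and members that share a pDC interval share its ratio. The deposited −log10 p had a median of 18.0 for the members in the authors' deposited CDP/cDC list and 157 in the authors' deposited CDP/pDC list.

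**Figure D1:**
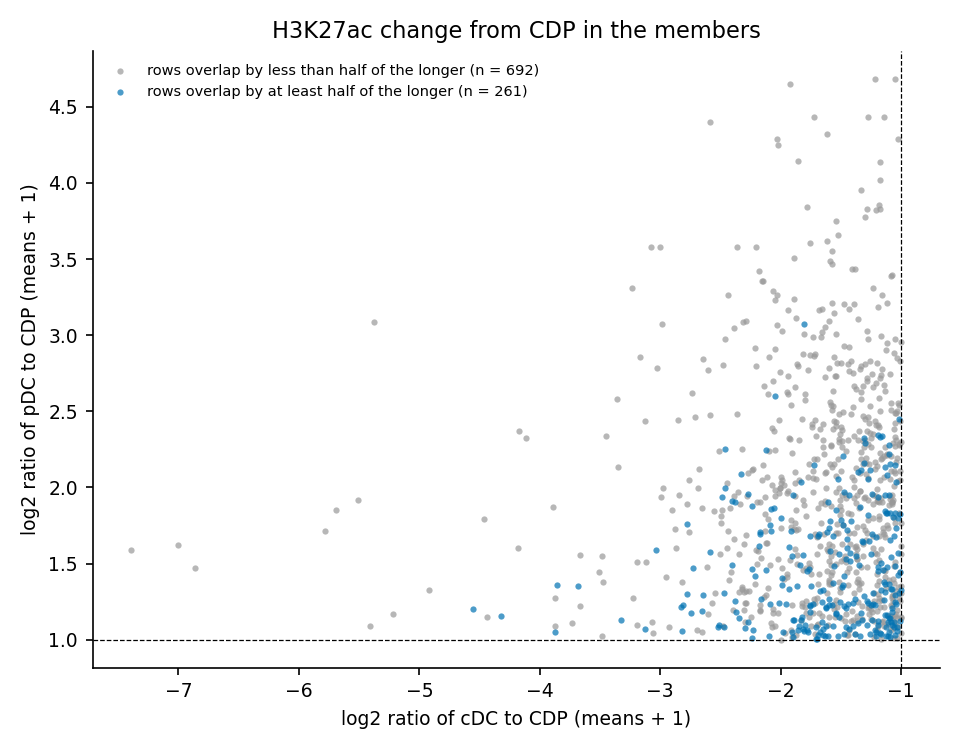
Each point is 1 of the 953 regions, with the log2 ratio of cDC to CDP on the x axis and of pDC to CDP on the y axis (means of 2 libraries plus 1), and dashed lines at the thresholds of -1 and 1. Blue points are the 261 members whose intervals overlap by at least 50% of the longer one. The points crowd toward both thresholds, with medians of -1.54 and 1.73.

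The number of qualifying regions depended on the cDC libraries. Over the members, the median log2 ratio of the second-listed to the first-listed cDC library was 0.96, and the second-listed one was the higher in 842 of them. The same ratio was 0.50 over all regions of the list. Without the first-listed cDC library 624 regions met the rule, and without the second-listed one 2048 did. Of the 953 members, 591 and 931 were kept in these cases. For pDC the median log2 ratio of the second-listed to the first-listed library over members was 0.24. When each library was scaled to the same autosomal sum within a list, 678 regions met the rule, 659 of them members. That scaling moved the median of log2 pDC over CDP across all listed regions by -0.30, and the members then had medians of -1.48 for log2 cDC over CDP and 1.43 for log2 pDC over CDP.

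Members at the threshold had close values in some libraries. The member at 39617101 to 39617400 on chromosome 1 had 26 and 62 in cDC, compared with 110 and 68 in CDP, a ratio of 2. The highest cDC and the lowest CDP value there lay near each other. The interval on chromosome 4 from 137806751 to 137808650 missed narrowly, with 743 and 955 in cDC, compared with 1446 and 1950 in CDP. On the pDC side, the member on chromosome 9 from 86389251 to 86389450 belonged to an interval with 229 and 239 in pDC, compared with 52 and 181 in CDP. The CDP libraries there differed by more than the second of them differed from pDC.

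The members with the largest smaller ratio were short in the CDP/cDC list, 150 to 450 bp, and had low signals in cDC. On chromosome 11 from 87061201 to 87061650, cDC had 17 and 26, compared with 191 and 230 in CDP, a 9.40-fold lower signal. Its pDC interval, from 87056951 to 87061550, had 10728 and 12600 in pDC, compared with 837 and 1513 in CDP, a 9.92-fold higher signal. The member covered 7.61% of that interval and lay at its right edge. On chromosome 2 from 35754801 to 35755050, cDC had 0 and 2, compared with 70 and 94 in CDP, and the pDC interval from 35752151 to 35755800 had 3276 and 3917 in pDC, compared with 347 and 499 in CDP. On chromosome 17 from 63361301 to 63361650, cDC had 8 and 19, compared with 155 and 76 in CDP, and the interval from 63360501 to 63363100 had 3826 and 4235 in pDC, compared with 409 and 264 in CDP. No cDC or pDC value overlapped a CDP value at these places, which the rule requires of every member.

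At several of these places the cDC libraries were far apart. On chromosome 7 from 106508801 to 106509200 they had 1 and 32, compared with 116 and 160 in CDP, and the pDC interval had 2510 and 2156 in pDC, compared with 300 and 253 in CDP. On chromosome 9 from 103642201 to 103642600 they had 0 and 24, compared with 81 and 151 in CDP, and the pDC interval had 1887 and 2440 in pDC, compared with 238 and 357 in CDP. The lowest cDC level was found at 3 members listed at 0 in both cDC libraries. One of them, on chromosome 1 from 133900201 to 133900650, had 157 and 177 in CDP, and its pDC interval from 133899751 to 133901400 had 665 and 1166 in pDC, compared with 338 and 270 in CDP. Another, on chromosome 9 from 89562701 to 89563050, had 143 and 111 in CDP, and its pDC interval had 725 and 966 in pDC, compared with 301 and 247 in CDP. In the first-listed cDC library, 32 members were listed at 0.

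**Figure D2:**
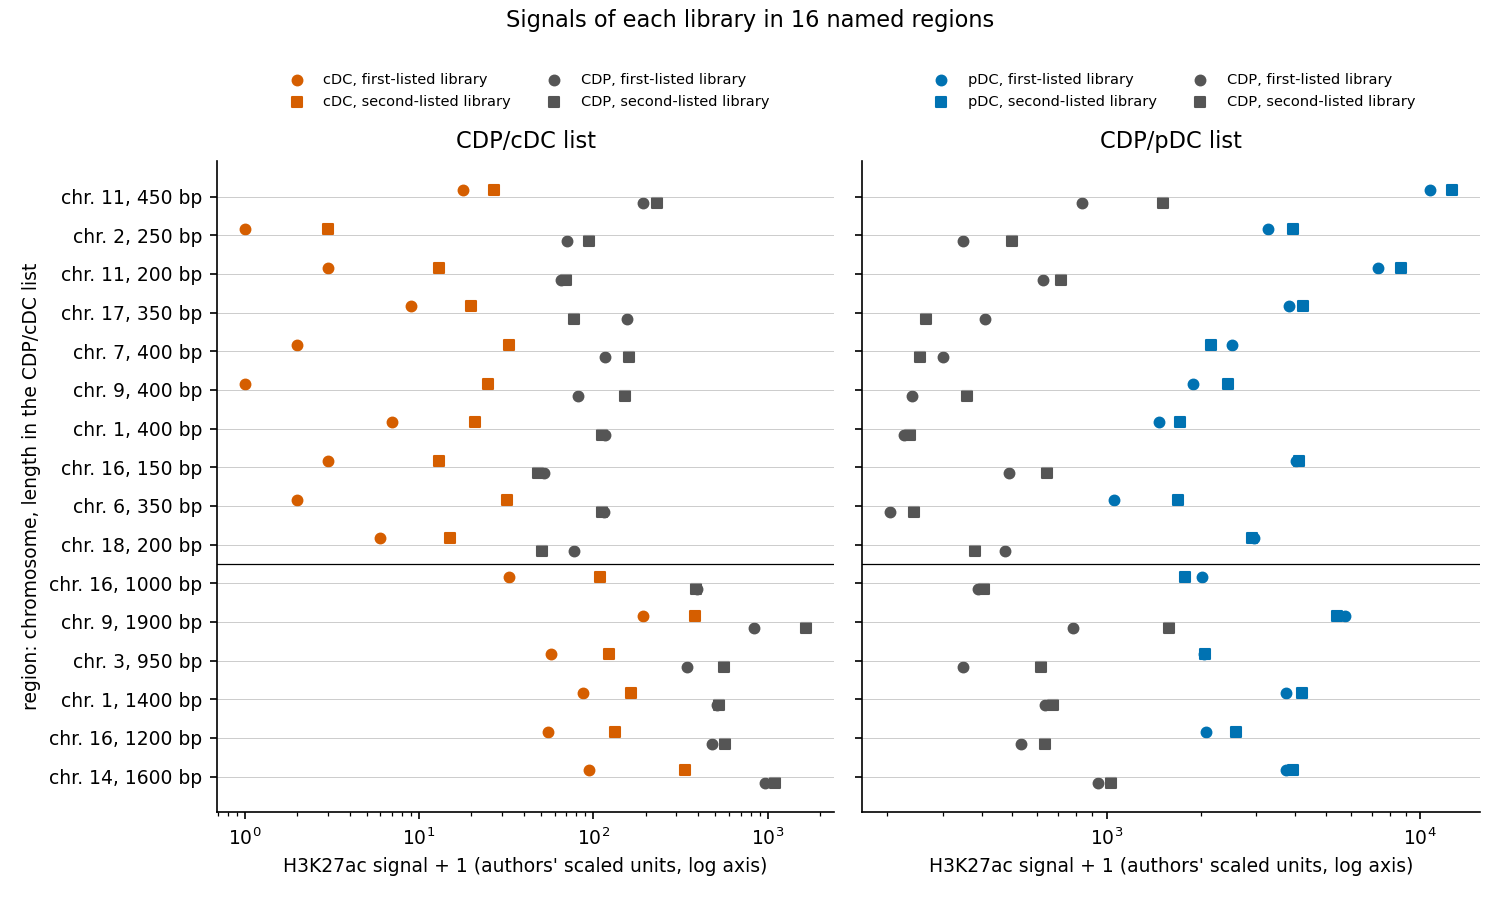
Signal plus 1 of each library on log axes in the 10 members with the largest smaller ratio (above the line) and the 6 with the largest smaller ratio among those whose intervals overlap by at least 50% of the longer (below the line). The left panel shows cDC and CDP in the CDP/cDC list and the right panel pDC and CDP in the CDP/pDC list. Circles are first-listed and squares second-listed libraries. No cDC or pDC value overlaps a CDP value of its panel, which the rule requires.

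Per 100 bp, the members had low signal in cDC in the CDP/cDC list and high signal in pDC in the CDP/pDC list. Their order relative to CDP follows from the rule. The levels come from the libraries that chose the members, so they are given as a description. The median was 12.7 per 100 bp in cDC and 35.9 in CDP over the members in the CDP/cDC list, beside 38.3 in cDC and 40.7 in CDP over all its autosomal regions. In the CDP/pDC list it was 86.4 in pDC and 23.2 in CDP over the members, beside 42.4 in pDC and 39.0 in CDP over all its autosomal regions. The CDP signal of the members was thus below the list's median in both lists.

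Most members were narrow places of lower signal in cDC inside broader places of higher signal in pDC. Their median length was 550 bp in the CDP/cDC list and 1950 bp in the CDP/pDC list, against medians of 500 and 600 bp over all autosomal regions of these lists. Autosomal regions meeting the loss criteria had a median of 500 bp, and those meeting the gain criteria 1000 bp. In the CDP/cDC list 787 of the 953 lay wholly within their pDC interval. They covered a median of 31.1% of it, and 37 were longer than it. The signal per bp of CDP, brought to a common scale through 1727 regions with identical bounds in both lists, was higher in the member than over its pDC interval in 871 members, by a median factor of 1.44. The midpoint lay nearer to the centre than to the edge of the pDC interval in 633 members and outside it in 10. Among regions lower in both mature types than in CDP that factor was 0.949, and among regions higher in both it was 1.04. Among the regions up in cDC and down in pDC it was 0.644, and there the pDC interval was the shorter one, with a median of 550 bp beside 1800 bp in the CDP/cDC list. Lengths and positions come from the same lists that chose the members, so these values are a description.

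**Figure D3:**
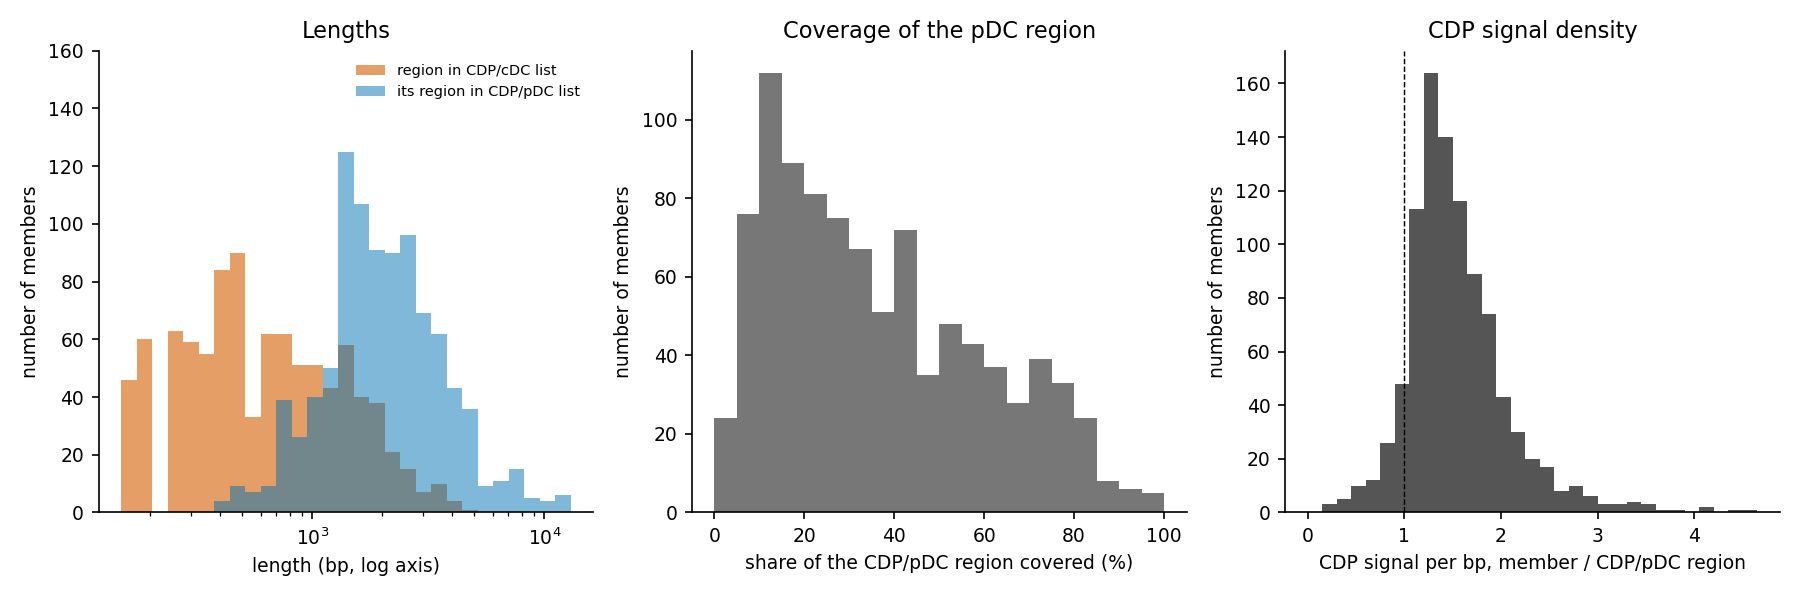
Histograms over the 953 members. The left panel shows the length in bp (log axis) of each member in the CDP/cDC list and of its region in the CDP/pDC list, with medians of 550 and 1950 bp. The middle panel shows the percentage of the pDC region covered (median 31.1%), and the right panel the CDP signal per bp in the member divided by that in its pDC region (median 1.44, dashed line at 1).

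In a smaller group the intervals of the lists were closer in width, with medians of 1250 bp in the CDP/cDC list and 1750 bp in the CDP/pDC list. These intervals overlapped by at least 50% of the longer one in 261 members, by at least 70% in 97 and by at least 80% in 33, limits that were chosen after the values had been seen. For the 261, the median signal was 2.81-fold lower in cDC and 2.52-fold higher in pDC than in CDP. For the other 692 it was 2.92-fold lower in cDC and 3.78-fold higher in pDC. On chromosome 9 from 91882551 to 91884450, cDC had 191 and 382, compared with 840 and 1667 in CDP. Its pDC interval, from 91882301 to 91884800, had 5777 and 5421 in pDC, compared with 778 and 1576 in CDP, so that the signal was 4.36-fold lower in cDC and 4.75-fold higher in pDC over largely shared bases. In the MPP/CDP list it had 685 and 1329 in CDP, compared with 328 and 253 in MPP (log2 difference 1.72 ± 0.34, SE, limma, adjusted p = 0.0011), so that its order of levels was MPP below CDP in that list. On chromosome 16 from 93585801 to 93586800, cDC had 32 and 108, compared with 391 and 388 in CDP, and the interval from 93585451 to 93587050 had 2019 and 1783 in pDC, compared with 389 and 406 in CDP. On chromosome 14 from 70611901 to 70613500, cDC had 94 and 334, compared with 970 and 1109 in CDP, and the interval from 70611501 to 70613700 had 3740 and 3919 in pDC, compared with 936 and 1032 in CDP. All cDC values at these places lay below all CDP values, and all pDC values above, as the rule requires.

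The longest members spanned several kb, and in 3 of the 5 longest the pDC interval covered under 50% of the member. On chromosome 18 from 68386251 to 68390100, over 3850 bp, cDC had 402 and 559, compared with 2044 and 2313 in CDP, a 4.53-fold lower signal, and the interval from 68385951 to 68390500 had 4882 and 7731 in pDC, compared with 1919 and 2196 in CDP, a 3.06-fold higher signal. On chromosome 12 from 80022401 to 80026250, also 3850 bp, cDC had 483 and 1032, compared with 2617 and 3076 in CDP, and the interval from 80021601 to 80026200 had 7267 and 7892 in pDC, compared with 2334 and 2842 in CDP. In both, the intervals covered the same bases over most of their length. The longest member, on chromosome 3 from 98139001 to 98144050, had 604 and 1003 in cDC, compared with 3398 and 3846 in CDP over 5050 bp. Its pDC interval covered 1550 bp near one end, from 98139201 to 98140750, with 1746 and 1842 in pDC, compared with 785 and 786 in CDP.

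Members were mostly scattered. Joining those less than 5 kb apart gave 847 stretches, of which 753 held 1 member, 82 held 2 and 12 held 3. Of the 871 pDC intervals, 72 held 2 members and 5 held 3. Per chromosome, members made up 0.829% of the listed regions on chromosome 14, the lowest share, and 1.69% on chromosome 16, the highest.

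The stretch of 3 members with most pDC signal was on chromosome 15 from 85998451 to 86007800. The member from 85998451 to 85999400 had 95 and 178 in cDC, compared with 250 and 565 in CDP, and its pDC interval had 8917 and 10593 in pDC, compared with 740 and 1020 in CDP. The member from 86002501 to 86002850 had 65 and 1 in cDC, compared with 131 and 76 in CDP, and its pDC interval had 16603 and 20070 in pDC, compared with 706 and 1128 in CDP. The first-listed cDC library was the higher one there. The member from 86007051 to 86007800 had 11 and 64 in cDC, compared with 107 and 384 in CDP, and its CDP signal per bp was 0.318 times that of its pDC interval. That interval had 38755 and 41148 in pDC, compared with 7920 and 10450 in CDP. The ratio of pDC to CDP was thus 11.1-fold, 19.98-fold and 4.35-fold in these intervals, which covered 19.8 kb between 85997151 and 86017350. The CDP/cDC list had 23 regions in this span. Of these, 11 covering 6.35 kb had a higher mean in cDC and 12 covering 4.8 kb a lower one. Over these 23 regions together the signals were 11463 and 13884 in cDC, compared with 9652 and 13041 in CDP, so that the lower signal in cDC held for the members and not for the span. Higher pDC signal was thus listed over nearly the whole span, whereas regions with higher and with lower means in cDC lay within it. Several of these differed little. The region from 86012501 to 86013050 had 1219 and 1680 in cDC, compared with 1258 and 1857 in CDP.

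On chromosome 7, a single region of 12600 bp from 79419751 to 79432350 had 24820 and 26474 in pDC, compared with 1058 and 1314 in CDP, a 21.6-fold higher signal. The CDP/cDC list held 3 regions there, covering 1.6 kb in all, and each was a member. The central one, from 79425251 to 79426500, had 0 and 268 in cDC, compared with 433 and 457 in CDP, so that the cDC libraries disagreed on whether any signal was present. The CDP signal per bp in this member was 3.35 times that of the whole pDC interval. The largest ratio of pDC to CDP among the members, chosen after the values were seen, was 25.7-fold on chromosome 8 from 86820801 to 86824000, with 8037 and 10980 in pDC, compared with 396 and 342 in CDP. The interval held 2 members, both close to the threshold for cDC. The one from 86820701 to 86821050 had 23 and 66 in cDC, compared with 98 and 112 in CDP, and the one from 86823351 to 86823550 had 17 and 37 in cDC, compared with 70 and 44 in CDP. A large difference in pDC thus went with a small one in cDC there.

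On chromosome 17, 3 members between 50192651 and 50195600 lay in 1 interval of 8000 bp, from 50188151 to 50196150, with 14001 and 14801 in pDC, compared with 3048 and 3422 in CDP. Summed over the members alone, which the rule chose as lower in cDC, the signals were 179 and 276 in cDC, compared with 594 and 630 in CDP. The CDP/cDC list held 6 regions in that interval, 5 of them lower in cDC. The remaining one, from 50189651 to 50191650, had 1630 and 2663 in cDC, compared with 1722 and 1801 in CDP. Over the 6 regions together the signals were 2158 and 3658 in cDC, compared with 3126 and 3402 in CDP. The cDC libraries thus lay on both sides of the CDP libraries over the interval. On chromosome 11 from 22740851 to 22747350, the signals summed over the members were 275 and 633 in cDC, compared with 1123 and 1323 in CDP, and their pDC intervals had 9964 and 10490 in pDC, compared with 2071 and 2330 in CDP. On the same chromosome from 85603351 to 85606300, 3 members with sums of 25 and 39 in cDC, compared with 167 and 222 in CDP, lay in 1 interval with 7340 and 8715 in pDC, compared with 625 and 714 in CDP. Between them, from 85604951 to 85605450, was a region with the opposite change in cDC, with 84 and 256 in cDC, compared with 17 and 25 in CDP. Lower and higher cDC signal thus lay side by side in a region listed as a whole as higher in pDC.

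**Figure D4:**
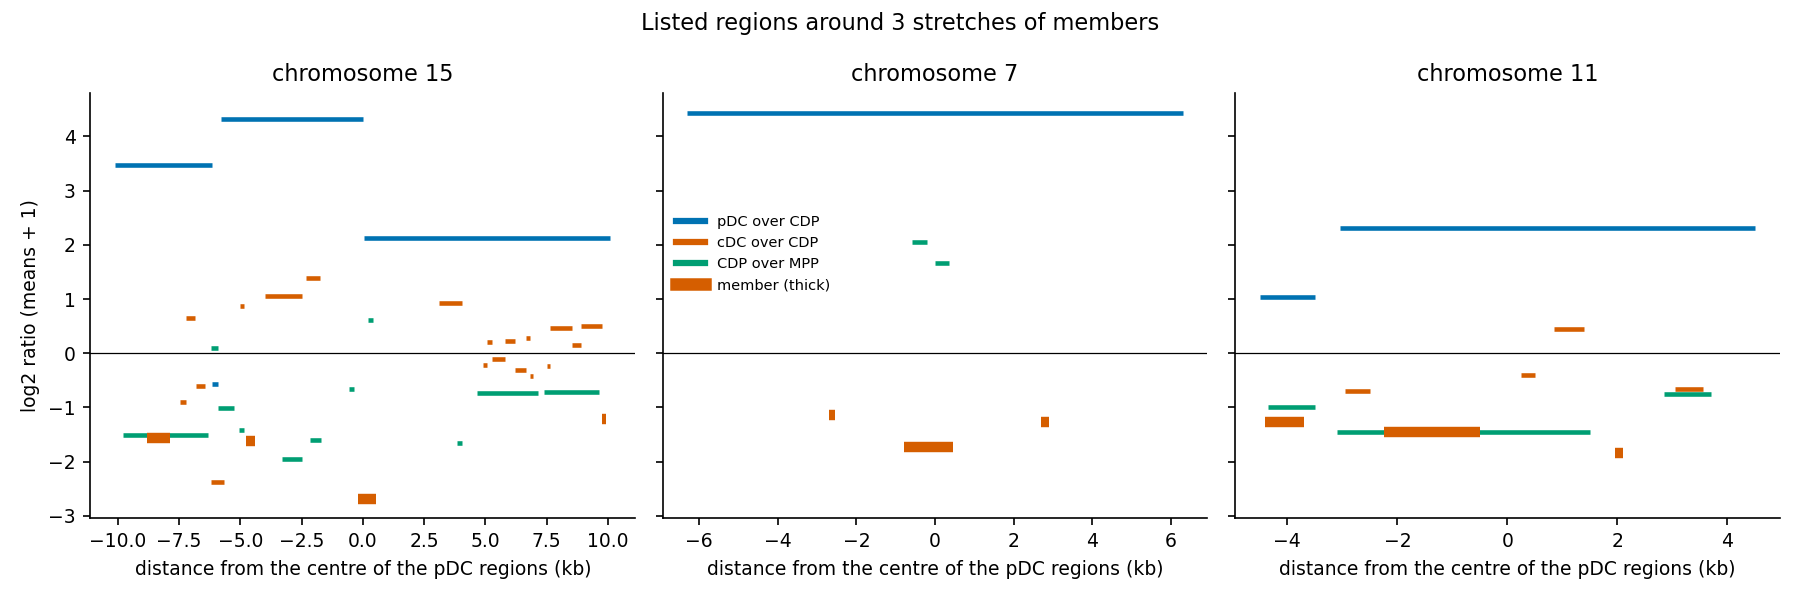
Regions of 3 lists around the stretches on chromosomes 15, 7 and 11 (22740851 to 22747350), by distance in kb from the centre of the span of their pDC regions, with the log2 ratio of group means plus 1 on the y axis. Blue bars are pDC over CDP, orange bars cDC over CDP with members thick, and green bars CDP over MPP. On chromosome 15 orange bars lie on both sides of 0, 11 of them above and 12 below, and on chromosome 7 each orange bar is a member.

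Of the 871 pDC intervals, 134 also held a region that the authors called higher in cDC than CDP, and 17 held one at least 2-fold higher with both libraries apart. In 566 the member was the only region of the CDP/cDC list. The same counts over all intervals meeting the gain criteria are not given here, so these numbers cannot be read as high or low. Within 10 kb, 54.8% of the members had another region meeting the loss criteria in cDC, and 9.65% had one at least 2-fold higher in cDC. Over all autosomal regions of the CDP/cDC list these shares were 38.4% and 23.1%. A region at least 2-fold lower in pDC than CDP lay within 10 kb of 28.4% of the members and of 49.4% of all regions. The pDC shares count the overlapping CDP/pDC interval itself, so that the share was 100% for regions lower in both mature types. For members that interval is higher in pDC by the rule, so their smaller share follows in part from the choice. Around regions lower in both mature types, 62.6% had another loss and 12.7% a region at least 2-fold higher in cDC within 10 kb, and around regions higher in both these shares were 15.7% and 45.1%. Neighbouring regions are not independent, and these shares were not tested.

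The earlier step, from MPP to CDP, was not used in the choice, except that the CDP libraries entered both. Of the members, 655 (68.7%) had a region in the MPP/CDP list that overlapped by at least 50% of the shorter, on 645 distinct regions, and the other 298 had none, which does not show equal signal. The levels in CDP and MPP were compared with limma on log2(signal + 1) across all 60816 regions of that list, with Benjamini-Hochberg adjustment over all of them and a threshold of 0.05. CDP was higher than MPP in 127 of the 655 (19.4%), beside 8.42% of all regions, and lower in 87 (13.3%), beside 11% of all regions. The 87 lay on 81 distinct regions of that list, and the other 441 members were not called. The median of log2 CDP over MPP was 0.41 for the members and -0.12 for all regions. Members thus included places with more acetylation in CDP than MPP and places with less.

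The other combinations of change had the following shares. Among regions lower in both mature types, 17.8% were higher and 14.7% lower in CDP than MPP, and among regions higher in both, 21.9% and 16.9%. Among the 279 regions with the mirrored pattern, up in cDC and down in pDC, 40.8% of those in the list were higher in CDP than MPP and 4.20% lower. The difference between these sets was not tested, since regions are not replicates. Leaving out single libraries, which also leaves fewer values to estimate the spread, changed the counts. Without the second-listed MPP library 47 members (7.18%) were higher in CDP and 33 (5.04%) lower, beside 3.28% and 4.84% of all regions. Without the first-listed MPP library 110 (16.8%) were higher and 27 (4.12%) lower, beside 7.45% and 4.11%. Without the first-listed CDP library 106 (16.2%) were higher and 42 (6.41%) lower, beside 6.91% and 8.36%. Without the second-listed CDP library 77 (11.8%) were higher and 75 (11.5%) lower, beside 5.07% and 10.6%. In each of these fits the share of members higher in CDP lay above that of all regions, while the share lower in CDP lay above it in some and below it in one. With equal autosomal totals, which moved the median over all regions by 0.14, 164 members (25.04%) were higher and 79 (12.1%) lower in CDP, beside 11.7% and 10.7% of all regions. Without the 25% of regions with the lowest mean signal, 493 members remained in the list, of which 104 (21.1%) were higher and 96 (19.5%) lower in CDP, beside 10.3% and 12.8% of all regions. The median of log2 CDP over MPP was then 0.16 for the members, so that the lean toward higher values in CDP was smaller.

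**Figure D5:**
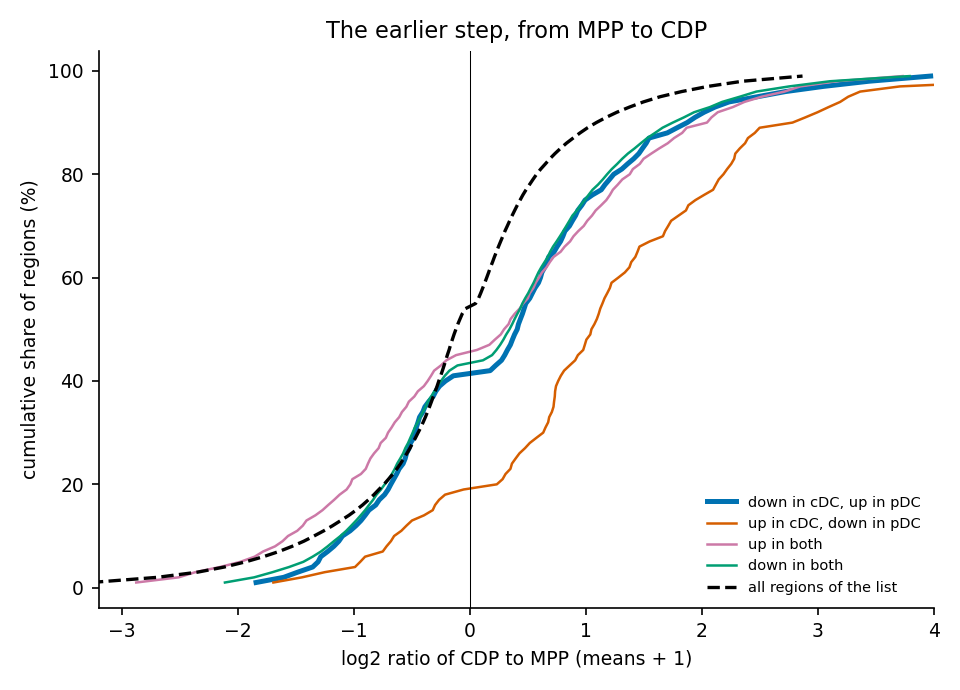
Cumulative share of regions (y axis, %) by log2 ratio of CDP to MPP (x axis, means plus 1), for the members in the MPP/CDP list (thick blue line, n = 655), the 3 other combinations of change in cDC and pDC, and all 60816 regions of the list (dashed line). The members' line runs close to that of the regions lower in both mature types. It crosses the line of all regions below 0 and lies to the right of it at the median, 0.41 for the members and -0.12 for all regions.

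The members with the largest ratio of CDP to MPP had low signals in MPP. The one with the highest levels, on chromosome 17 from 50344151 to 50345850, had 967 and 1107 in CDP, compared with 82 and 20 in MPP, in the MPP/CDP list, a log2 difference of 4.63 ± 0.47 (SE, limma, adjusted p = 2.6e-06). It had 89 and 808 in cDC, compared with 1214 and 1319 in CDP, and its pDC interval from 50340851 to 50345950 had 6819 and 8472 in pDC, compared with 1429 and 1657 in CDP. The signal was higher in CDP than MPP in the MPP/CDP region, and higher in pDC than CDP over the longer pDC interval. The cDC libraries differed from each other by more than the second of them differed from CDP. On chromosome 13, the member from 113243251 to 113243750 overlapped an MPP/CDP region with 154 and 138 in CDP, compared with 4 and 0 in MPP. The log2 difference was 6.04 ± 1.39 (SE, limma, adjusted p = 0.0040). This member was close to both thresholds, with a 2.08-fold lower signal in cDC and a 2.02-fold higher signal in pDC. On chromosome 11, the member from 117337301 to 117337950 overlapped an MPP/CDP region with 153 and 145 in CDP, compared with 11 and 0 in MPP (log2 difference 5.44 ± 1.26, SE, limma, adjusted p = 0.0044). It was close to the cDC threshold, with 34 and 200 in cDC, compared with 258 and 228 in CDP, a 2.07-fold lower signal. With MPP values this near 0, the log2 difference depends on the added 1.

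Those with the largest ratio of MPP to CDP had several times more signal in MPP. On chromosome 11, the member from 5402551 to 5403150 lay in the region from 5401551 to 5403550 of the MPP/CDP list. That region had 216 and 411 in CDP, compared with 1846 and 1499 in MPP, a log2 difference of -2.48 ± 0.33 (SE, limma, adjusted p = 2.8e-05). The member had 31 and 74 in cDC, compared with 154 and 278 in CDP. It lay in a pDC interval from 5399301 to 5403500 with 8105 and 8053 in pDC, compared with 305 and 543 in CDP. The signal was thus lower in CDP than MPP in the MPP/CDP region and lower in cDC than CDP in the member. It was 19.0-fold higher in pDC than CDP over the pDC interval. These intervals differ in length, so the changes do not cover the same bases. On chromosome 17 from 86583851 to 86584200, CDP had 643 and 496, compared with 3270 and 3058 in MPP, over the region from 86582201 to 86585650 of that list (log2 difference -2.48 ± 0.29, SE, limma, adjusted p = 8.0e-06). The member on chromosome 6 from 52648201 to 52648550 lay in the region from 52647501 to 52649650 of that list. That region had 280 and 361 in CDP, compared with 1535 and 1213 in MPP (log2 difference -2.10 ± 0.30, SE, limma, adjusted p = 6.2e-05). Among the members with the largest smaller ratio, the one on chromosome 1 from 135792151 to 135792550 partly overlapped the MPP/CDP region from 135792301 to 135793000. That region had 131 and 141 in CDP, compared with 377 and 247 in MPP (log2 difference -1.16 ± 0.37, SE, limma, adjusted p = 0.031). The member had 6 and 20 in cDC, compared with 115 and 111 in CDP, and its pDC interval had 1472 and 1712 in pDC, compared with 225 and 235 in CDP. Acetylation was lower in CDP than MPP in the MPP/CDP region and 6.90-fold higher in pDC than CDP in the pDC interval. Levels in pDC and MPP were not compared, since no list holds both.

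Of the stretches named above, the span on chromosome 11 from 22740751 to 22749750 held 3 regions of the MPP/CDP list, each with a lower mean in CDP. The region from 22742151 to 22746750 had 1192 and 1548 in CDP, compared with 4066 and 3479 in MPP (log2 difference -1.47 ± 0.30, SE, limma, adjusted p = 0.0014). The region under the central member on chromosome 7, from 79425451 to 79425850, had 107 and 167 in CDP, compared with 18 and 47 in MPP (log2 difference 2.16 ± 0.63, SE, limma, adjusted p = 0.019). The earlier step thus differed in direction between these places. The ratio of pDC to CDP had a median of 3.27-fold in members called higher in CDP than MPP, 2.80-fold in those called lower, 3.28-fold in those not called and 3.77-fold in those without a region in the list.

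In the direct comparison of the mature types, the 953 members all had a region in the cDC/pDC list, on 866 distinct regions. The signal was at least 2-fold higher in pDC than cDC with libraries apart in 951, beside 28.2% of all autosomal regions of that list, which follows from the rule. The median difference was 8.46-fold. On chromosome 11 from 5402551 to 5403150, the region of this list had 9643 and 9446 in pDC, compared with 195 and 326 in cDC. On chromosome 17 from 63361301 to 63361650 it had 4530 and 4902 in pDC, compared with 66 and 119 in cDC, a 50.4-fold higher signal. No pDC value overlapped a cDC value at these places.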

How the data were processed

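Per the submitters' processing notes, reads were aligned with BWA 0.6.1 to mm9, and per the series title the differential peaks come from THOR. The authors' deposited lists give each region's bounds, direction, 2 signals per group, 1 for each library, and a p-value as −log10. The deposited signals have a unit of their own, not read counts, so no count test was used. List names gave the order of the groups, which was checked on intervals that have the same bounds in 2 lists (SD of the log2 ratio at most 0.058 in 10 pairs of the same library, at least 0.45 in 86 others). Signals were compared as ratios of means plus 1; no test was run on the contrasts that chose the members, where 2 against 2 values allow no two-sided exact permutation p under 0.333. CDP and MPP were compared with limma 3.58.1 (trend, R 4.3.3), tested on simulated data. The rest was done in Python 3.11.15 with matplotlib 3.10.9, pandas 2.3.3 and numpy 2.4.6.

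The members and gene lists were chosen with earlier results of these data known. Named regions are the 10 members with the largest smaller ratio, the 5 longest, the 5 with most pDC signal, the 5 stretches with most members, and the 5 with the largest ratio of CDP to MPP in each direction, of which a selection is given. Members with closer bounds, at the threshold, or listed at 0 in both cDC libraries were named after their values were seen. Gene lists and sequence motifs were not tested, since a genome and annotation of mm9 were not used here. Input and RNA libraries were not analysed here. Alternatives were other pseudocounts, ratios, overlaps, lengths and p-values, a filter on the 25% of regions with the lowest mean signal, equal autosomal totals, and all libraries but 1.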

Additional observations from a re-analysis of the deposited data

How the results depend on the processing

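The number of regions was 2116 with a ratio of at least 1.5, 246 with a ratio of at least 3, 544 with both intervals at least 500 bp long, and 261 with an overlap of at least 50% of the longer interval, the last chosen after seeing the data. Leaving out 1 library at a time gave 624 to 2048 regions. Pseudocounts of 0.5 and 5, other overlaps of the shorter interval, equal autosomal totals, a deposited −log10 p of at least 10 in both lists, and counting each pDC interval once gave 675 to 993. Of the members in the MPP/CDP list, leaving out 1 library gave 47 to 110 higher and 27 to 75 lower in CDP. In these limma fits 1 library stood alone in its group and was assumed to vary like the others. Of the 261 members with closer bounds, 248 were in that list, and 60 (24.2%) were higher and 26 (10.5%) lower in CDP, beside 8.42% and 11% of all regions. Over members, the median of log2 CDP over MPP stayed between 0.14 and 0.52 under the alternatives run. No paired analysis was possible because the deposited values carry no replicate numbers. The unknown read depth limits low signals most, such as members listed near 0 in cDC.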
